A study of Mus musculus with 6 samples.

Results

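The genes of the mitochondrial genome are the rows of the deposited table whose symbol starts with mt-, which are 37 of the 54446 genes listed. They comprise 13 coding genes, 2 rRNA genes and 22 tRNA genes, and each was matched to the raw counts of every library by its versioned Ensembl identifier. The samples were livers of 3 wild-type (WT) and 3 Fmo5-/- mice, with 1 RNA-seq library per animal. All were males of 32 weeks on a chow diet; the WT mice were C57BL/6J, and the Fmo5-/- mice were knockouts of Fmo5 generated on the C57BL/6J background. Both genotypes were bred at the same institution and housed in adjacent cages, and the sources used here do not say whether they were littermates.

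The mitochondrial genome is a small circular DNA kept in many copies per cell. It is transcribed from both strands into long precursors, and most of its mRNAs and rRNAs are flanked by tRNA genes, at which the precursors are cut. Its coding genes give subunits of respiratory complexes I, III and IV and of ATP synthase, whose other subunits, and all of complex II, are encoded in the nucleus. The liver is rich in mitochondria, and its oxidation of fatty acids, urea cycle and gluconeogenesis depend on them. In this annotation, 28 of the 37 genes lie on the plus strand of the reference, and 9 on the minus strand, which are 8 tRNA genes and mt-Nd6.

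The libraries held between 44886286 and 52338675 counts on genes, 66.2% to 69.2% of the reads listed. Fmo5, the targeted gene, had normalised counts of 39808, 37405 and 30240 in WT and of 1071, 1102 and 1194 in Fmo5-/- mice, so the libraries followed their labels. A normalised count here is a raw count divided by the library size after TMM scaling and multiplied by the mean scaled size of the 6 libraries. Of all 16734 genes tested with edgeR, 229 (1.37%) passed an adjusted p of 0.05. Where a library lists 0 counts for a gene, up to 3 counts remain possible, which is 0.0573 to 0.0668 counts per 1000000 counts on genes (CPM). Such limits, and the intervals on shares below, cover counting error only.

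Which of the 37 genes had counts was read beside the counting scheme and beside copies of mitochondrial DNA in the nuclear genome. STAR counts a read only if it maps to a single place and touches the exons of a single gene. Among annotated nuclear transcripts, 7 pseudogenes on the minus strand of chromosome 1 lie in a row between 24611535 and 24616197 (mm10) and match the mitochondrial genome between positions 6390 and 11042, a stretch of 4653 bases. That stretch holds 11 of the 37 genes whole, which are 6 coding and 5 tRNA genes, and parts of mt-Co1 and mt-Nd4. The nuclear bases between the pseudogenes were not searched, so a copy of the genes that lie there was not shown. Gm28661, Gm10925, Gm28437 and Gm10222 align with mt-Co2, mt-Atp6, mt-Co3 and mt-Nd4l without a mismatch. Gm28439 matches the first 876 bases of mt-Nd4, also without a mismatch. Gm29216 differs from the last 483 bases of mt-Co1 by a single substitution, A1066T, and Gm28438 differs from mt-Nd3 by T3C, with positions counted from 1 at the 5′ end of the mitochondrial gene and its base given first. The stretches around both differences are shown, with the differing base in capitals, to show how little separates a mitochondrial read from a nuclear one. The first 75 bases of the shared part of mt-Co1 (chrM:6390-6464, plus strand) and the matching stretch of Gm29216 (chr1:24616114-24616188, minus strand) read as follows.
mt-Co1: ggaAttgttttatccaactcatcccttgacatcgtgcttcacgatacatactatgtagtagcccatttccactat
Gm29216: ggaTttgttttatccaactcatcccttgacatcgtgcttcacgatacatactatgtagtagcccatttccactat
The first 75 bases of mt-Nd3 (chrM:9459-9533, plus strand) and of Gm28438 (chr1:24613045-24613119, minus strand) follow.
mt-Nd3: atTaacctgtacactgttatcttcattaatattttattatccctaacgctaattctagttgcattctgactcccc
Gm28438: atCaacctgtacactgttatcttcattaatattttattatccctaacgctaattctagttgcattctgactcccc

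The members inside that stretch had almost no counts in either genotype. All positions of 75 bases, the read length, were compared word for word with the annotated nuclear transcripts. The share of positions inside the gene that also occur there was 99.5% for mt-Co2 and mt-Atp6, 99.9% for mt-Co3, 97.8% for mt-Nd3 and 98.7% for mt-Nd4l. It was 61.5% for mt-Nd4, 39.8% for mt-Co1, 5.7% for mt-Nd2, 1.7% for mt-Nd5 and 0 for mt-Nd1, mt-Nd6, mt-Cytb, mt-Atp8 and both rRNA genes. mt-Co2, mt-Co3, mt-Atp6, mt-Atp8 and mt-Nd4l had between 0 and 4 counts in each of the 6 libraries, 17 in all, and mt-Nd3 had between 32 and 54. The mRNAs of mt-Co2 and mt-Co3, which encode core subunits of complex IV, and of both ATP synthase subunits could therefore not be compared between genotypes from these counts. mt-Atp8, a small subunit of the membrane part of ATP synthase, was unlike its neighbours in having no copy in an annotated transcript and 87 positions of its own, and it still had only 0 or 1 count per library. The place on chromosome 1 that continues the row of copies at its position is chr1:24614609-24614812, between Gm28661 and Gm10925. mt-Atp8 is shown whole (chrM:7766-7969, plus strand), with the 43 bases that it shares with mt-Atp6 in capitals.
mt-Atp8: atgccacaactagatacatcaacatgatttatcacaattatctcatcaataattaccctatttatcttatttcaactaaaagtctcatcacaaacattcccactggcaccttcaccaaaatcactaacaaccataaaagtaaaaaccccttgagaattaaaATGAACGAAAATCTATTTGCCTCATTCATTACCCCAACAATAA
A read over those bases touches both genes and is not counted for either. The next longest overlap between members is 14 bases, between mt-Nd5 and mt-Nd6, which lie on opposite strands.

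The nuclear copies had few counts themselves. Gm29216, which matches the end of mt-Co1, had 965, 548 and 869 counts in WT and 775, 1003 and 945 in Fmo5-/- mice. Gm13340 on chromosome 2, which is 97.6% identical to the whole of mt-Co1, had 677, 563 and 668 in WT and 657, 673 and 729 in Fmo5-/- mice. The genotypes overlapped for both copies, with log2 fold changes (Fmo5-/- over WT) of 0.03 ± 0.19 (SE) and -0.06 ± 0.10 and edgeR adjusted p of 0.951 and 0.775. The 6 copies on chromosome 1 other than Gm29216 averaged between 16.5 and 57.7 counts per library.

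**Figure D1:**
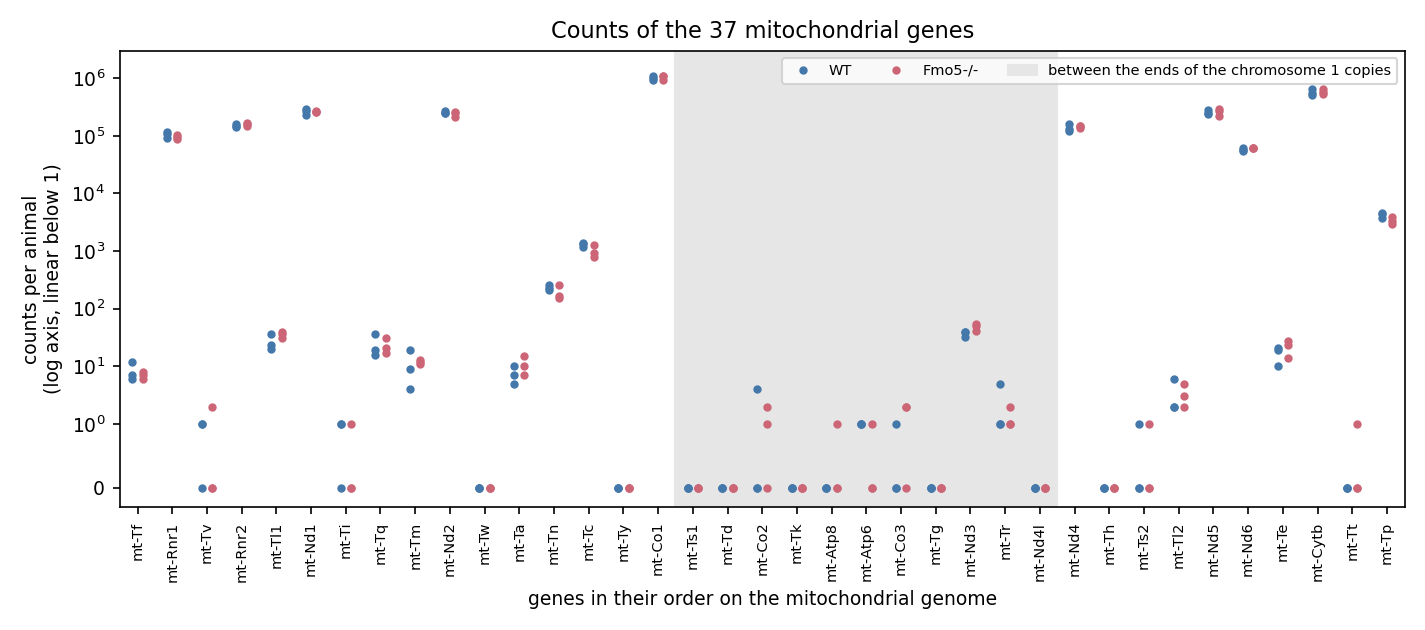
Raw counts of the 37 mitochondrial genes in each animal (log axis, linear below 1), with the genes in their order on the mitochondrial genome. Points are animals, coloured by genotype. The grey band marks the 11 genes that lie whole inside the stretch spanned by the copies on chromosome 1. Inside the band no gene exceeds 54 counts, whereas mt-Nd4 and mt-Co1 on its borders have at least 121237 and 927374.

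The share of gene counts on the mitochondrial genome, which leaves out reads that mapped to several places, did not separate the genotypes. It was 5.81%, 5.83% and 6.11% in WT and 5.61%, 5.39% and 6.2% in Fmo5-/- mice, with a Clopper-Pearson 95% interval of 5.824% to 5.838% in the smallest library, the second WT animal. The Fmo5-/- group held both the lowest and the highest animal, and its spread (5.73% ± 0.42, SD, n = 3) was larger than that of WT (5.92% ± 0.168, n = 3). The difference was -0.183 percentage points, with an exact two-sided permutation p of 0.5; the smallest p that 3 against 3 animals allow is 0.1. In bulk tissue, fewer mitochondria per cell, fewer cells rich in them and less RNA per mitochondrial genome cannot be told apart. The coding genes held 5.37% ± 0.194 of gene counts in WT and 5.21% ± 0.419 in Fmo5-/- mice, with exact p = 0.5. The rRNA genes held 0.535% ± 0.0306 and 0.512% ± 0.0493, with exact p = 0.7. Reads that mapped to several places were 11.8% to 13.1% of those listed in WT and 10.4% to 11.5% in Fmo5-/- mice. How many of them came from mitochondrial genes with nuclear copies was not tested, so these shares cover only the uniquely mapped part.

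The share on tRNA genes, counted on either strand, was lower in every Fmo5-/- animal than in every WT animal. It was 0.0131%, 0.0119% and 0.0119% in WT and 0.00768%, 0.00936% and 0.0114% in Fmo5-/- mice. This gave the smallest exact p that the design allows, 0.1, and 0.7 after Benjamini-Hochberg adjustment over the 7 shares tested, which also included complexes I, III and IV. Of the tRNA counts on either strand, 97.9% were on mt-Tp, mt-Tc and mt-Tn. The single-strand columns add tRNA genes with few counts on either strand, such as mt-Te, so their share sums other genes. It turned with the first of these columns (0.027% in WT and 0.028% in Fmo5-/- mice) and not with the second (0.0319% and 0.03%). The shares of complex I (2.03% ± 0.0821 in WT, 1.95% ± 0.106 in Fmo5-/- mice), of complex III (1.21% ± 0.0838, 1.18% ± 0.132) and of complex IV (2.13% ± 0.0316, 2.09% ± 0.199) overlapped between genotypes, with exact p between 0.4 and 0.7. The complex IV share was in effect that of mt-Co1, since mt-Co2 and mt-Co3 had at most 4 counts in any library.

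**Figure D2:**
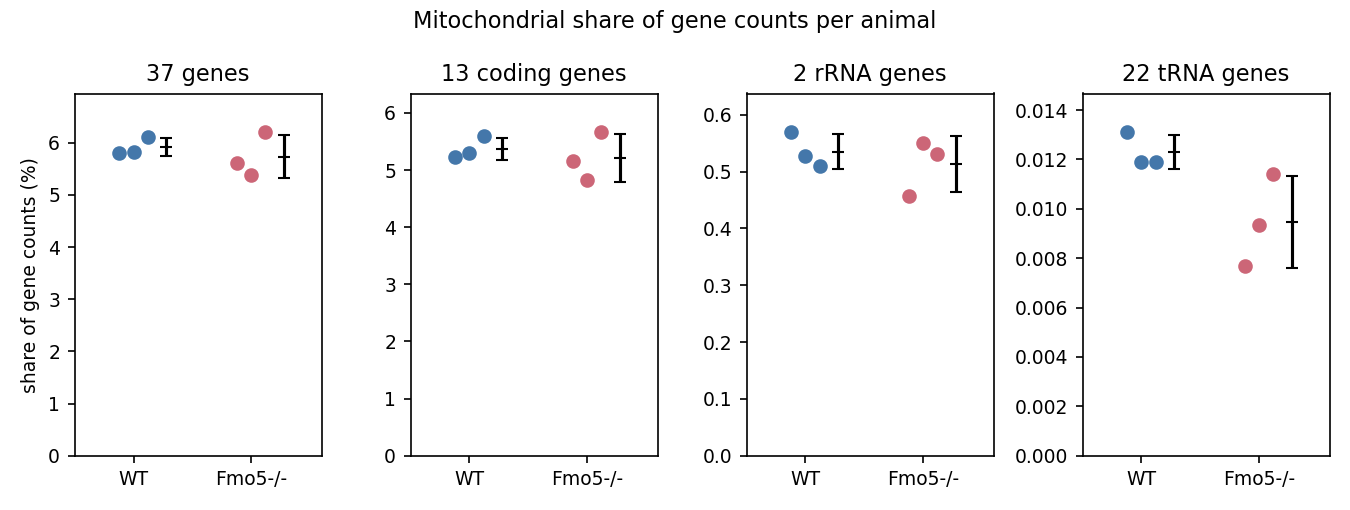
Share of gene counts on all 37 mitochondrial genes and on the coding, rRNA and tRNA genes (y axis, percent, from 0); points are animals, and the bar beside them is the mean ± SD (n = 3). The genotypes overlap in the first 3 panels, and the tRNA share, counted on either strand, is 0.0119% or more in WT and 0.0114% or less in Fmo5-/- mice. In the single-strand columns, which add other tRNA genes, the direction turned with the first column and not with the second.

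Levels of the members were compared with each other per countable position, that is, per 1000000 scaled counts and per 75-base position that touches no other gene and has no copy among nuclear transcripts. Only 7 coding genes and the 2 rRNA genes have at least 400 such positions. mt-Co1, the catalytic core subunit of complex IV, was the highest, at 25.0 ± 0.526 in WT and 22.8 ± 2.77 in Fmo5-/- mice. mt-Cytb, the only mitochondrial subunit of complex III, followed at 11.8 ± 0.896 and 10.6 ± 1.29. Both stood above the next gene in all 6 animals, and together they took 56.7% of all mitochondrial counts.

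The subunits of complex I lay below these. mt-Nd1 averaged 6.1 over the 6 animals, mt-Nd4 5.8 and mt-Nd2 5.64, and their order changed between animals. mt-Nd1 exceeded mt-Nd4 in 4 of 6 animals, and mt-Nd4 exceeded mt-Nd2 in 3 of 6. mt-Nd5 (3.12) and mt-Nd6 (2.83) came next and kept that order in 5 of 6 animals. mt-Rnr1 (2.35) and mt-Rnr2 (2.11), the rRNAs of the small and the large mitochondrial ribosomal subunit, were lowest in all 6 animals. The libraries were made with an mRNA kit, so these are levels in the libraries and not in total RNA.

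Among mitochondrial genes, 17 of 37 passed edgeR's filter on low counts, and none of the 17 was called at an adjusted p of 0.05, beside the 1.37% called among all genes tested. At an unadjusted p of 0.05, 4 of 17 passed, all lower in Fmo5-/- mice, where 21.8% of all genes passed in either direction and 10.2% passed as lower. The genotypes did not overlap for mt-Rnr1, mt-Nd2 and mt-Tp, 3 of 17, beside 27.4% of all genes. Of the 17, 14 had a negative fold change, beside 49.2% of all genes, and their median log2 fold change was -0.14, against 0.01 over all genes tested. Log2 fold changes depended on mean level over all genes, however, with a median of -0.06 over the 7819 genes with a mean of 500 or more and of 0.12 over the 8915 below it. All 11 members with a mean of 500 or more had a negative fold change, and so did 64.0% of all genes with such a mean. DESeq2 called 3 of 16 members with an adjusted p (mt-Tp, mt-Rnr1 and mt-Tc, all lower), where it called 1395 of 15571 genes (8.96%; 4.21% as lower). With library size alone as the scaling, the median over all genes moved to 0.12 and that of the members to -0.03, with 10 of 17 lower in place of 14.

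**Figure D3:**
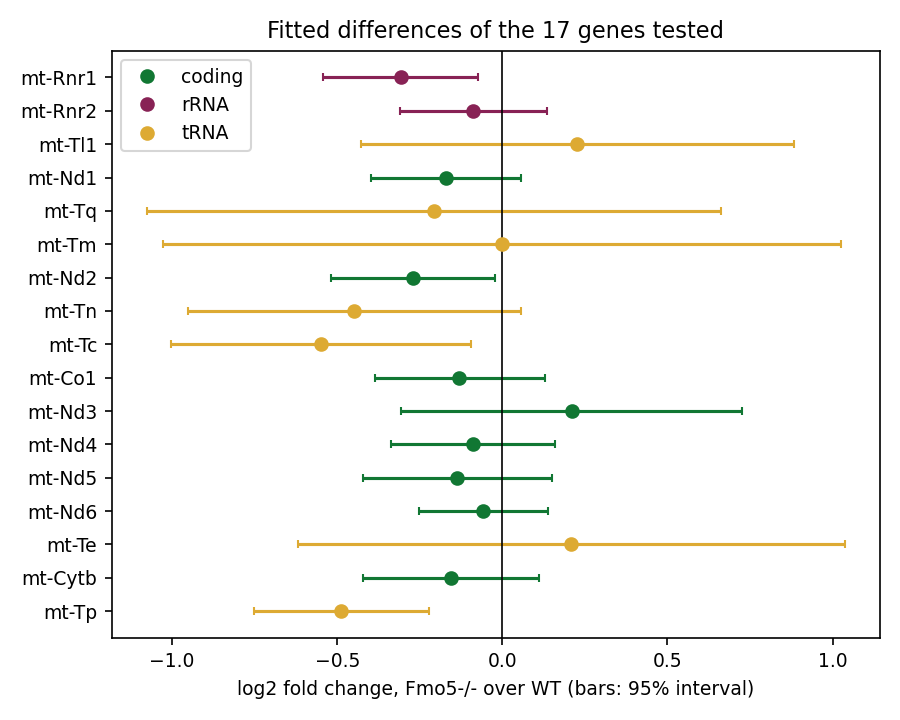
Log2 fold change of the 17 mitochondrial genes tested (x axis, Fmo5-/- over WT, edgeR with TMM scaling), with 95% intervals as bars and colours for coding, rRNA and tRNA genes, in genome order from the top. The intervals of mt-Rnr1, mt-Nd2, mt-Tc and mt-Tp lie below 0, and those of the other 13 genes include it.

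mt-Rnr1 had normalised counts of 121784, 102955 and 110309 in WT and of 83061, 94848 and 92828 in Fmo5-/- mice. Every WT animal was above every Fmo5-/- animal, and the log2 fold change was -0.31 ± 0.10 (edgeR adjusted p = 0.135; DESeq2 adjusted p = 0.0386). With library size alone as the scaling it was -0.19 (edgeR adjusted p = 0.321), and the genotypes overlapped. mt-Rnr2 had 168294, 161222 and 149521 in WT and 139617, 153082 and 158063 in Fmo5-/- mice. These overlapped, with a log2 fold change of -0.09 ± 0.10 and an adjusted p of 0.65, and it turned to 0.02 with library size alone as the scaling. The ratio of mt-Rnr1 to mt-Rnr2 counts, which needs no scaling between libraries, was 0.724, 0.639 and 0.738 in WT and 0.595, 0.62 and 0.587 in Fmo5-/- mice. The lowest WT ratio exceeded the highest Fmo5-/- ratio, with the smallest exact permutation p that the design allows, 0.1. Counts on both rRNA genes per 100 counts on coding genes were 9.98 ± 0.888 in WT and 9.88 ± 1.33 in Fmo5-/- mice, with exact p = 0.9. Neither ratio was a planned comparison, and their exact p were not adjusted. The ratio of mt-Rnr1 to mt-Rnr2 uses the same mt-Rnr1 counts as the fold change, so it is not separate evidence.

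Of the complex I subunits, mt-Nd2 came closest to a call. Its normalised counts were 265224, 279936 and 273824 in WT and 242145, 196064 and 240685 in Fmo5-/- mice. The groups did not overlap, and the log2 fold change of -0.27 ± 0.11 had an edgeR adjusted p of 0.193. mt-Nd1, a membrane subunit near the quinone site, had 282621, 254014 and 295936 in WT and 255065, 234442 and 250029 in Fmo5-/- mice, a log2 fold change of -0.17 ± 0.10 with an adjusted p of 0.361. The groups overlapped, since 1 Fmo5-/- animal exceeded the lowest WT animal. mt-Nd4 had 139448, 135286 and 164420 in WT and 129808, 134490 and 148384 in Fmo5-/- mice, with a log2 fold change of -0.09 ± 0.11 (adjusted p = 0.684). mt-Nd5, another of the proton-pumping membrane subunits, had 250629, 280344 and 284684 in WT and 269406, 205569 and 267436 in Fmo5-/- mice, with a log2 fold change of -0.14 ± 0.13 (adjusted p = 0.579). In both, the groups overlapped, and for mt-Nd5 the second Fmo5-/- animal was the lowest of all 6, as it was for mt-Nd2, mt-Nd1, mt-Co1 and mt-Cytb. Without that animal the log2 fold change was -0.02 for mt-Nd5, -0.03 for mt-Co1, -0.09 for mt-Cytb, -0.18 for mt-Nd2 and -0.14 for mt-Nd1. Without the third Fmo5-/- animal instead, these were larger in size, in the same order -0.20, -0.20, -0.26, -0.32 and -0.18. With all animals and library size alone as the scaling, they were -0.03, -0.02, -0.05, -0.17 and -0.06, and that of mt-Nd4 turned to 0.02.

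mt-Nd6 is the only coding gene on the minus strand. It had 59684, 60216 and 62532 in WT and 57265, 56787 and 61222 in Fmo5-/- mice, a log2 fold change of -0.06 ± 0.09 with an adjusted p of 0.746. Of the mitochondrial counts, it took 2.03% ± 0.0306 in WT and 2.17% ± 0.143 in Fmo5-/- mice, and the genotypes did not overlap on that share. Among the 14 genes that took at least 0.001%, this was true of 2, mt-Nd6 and mt-Tp. On normalised counts, the genotypes did not overlap for 27.4% of all genes tested. mt-Nd3, of which 97.8% of positions are shared with a nuclear copy, had 42.4, 35.7 and 40.9 in WT and 38.2, 49.6 and 50.1 in Fmo5-/- mice, with a log2 fold change of 0.21 ± 0.23 (adjusted p = 0.64).

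The countable genes of complexes III and IV varied more among the Fmo5-/- animals than among WT. mt-Cytb had 597021, 581476 and 669108 in WT and 532566, 498393 and 628047 in Fmo5-/- mice. The third Fmo5-/- animal exceeded 2 of the WT animals, and the log2 fold change was -0.16 ± 0.12 (adjusted p = 0.489). mt-Co1 had 1071443, 1059305 and 1103306 in WT and 1022898, 851212 and 1081546 in Fmo5-/- mice. Its SD was 22725 in WT and 119701 in Fmo5-/- mice, with a log2 fold change of -0.13 ± 0.11 and an adjusted p of 0.553. The 95% interval for mt-Co1, from -0.39 to 0.13, leaves room for a decrease or a small increase.

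The tRNA genes are 59 to 75 bases long, and 21 of the 22 are shorter than a read. A read over such a gene reaches past its ends, and 18 of the 22 have no position at which a 75-base read touches no neighbouring gene. The other 4 are mt-Tl1, which is as long as a read and has 1 position, mt-Tn with 31, mt-Tc with 26 and mt-Tp with 67. mt-Tp borders the non-coding control region, which holds the promoters and the displacement loop. mt-Tn and mt-Tc border a gap of 32 bases, the known start of replication of the light strand. mt-Tp, mt-Tc and mt-Tn lie on the minus strand, and their sequences are given since they carry nearly all tRNA counts. The sequences are written 5′ to 3′ on the gene's strand with the anticodon in capitals, for proline (chrM:15356-15422), cysteine (chrM:5192-5257) and asparagine (chrM:5089-5159).
mt-Tp: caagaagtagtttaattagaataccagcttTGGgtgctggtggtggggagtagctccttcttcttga
mt-Tc: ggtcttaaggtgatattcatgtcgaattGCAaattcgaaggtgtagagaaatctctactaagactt
mt-Tn: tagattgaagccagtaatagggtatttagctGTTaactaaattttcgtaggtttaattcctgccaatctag

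These tRNA genes had the largest fold changes of the members in size. mt-Tp had normalised counts of 4783, 4147 and 4577 in WT and of 2771, 3101 and 3767 in Fmo5-/- mice. The groups did not overlap, and the log2 fold change of -0.49 ± 0.12, 28.6% lower, had an edgeR p of 0.00249 and an adjusted p of 0.071. The DESeq2 adjusted p was 0.00646. mt-Tc had 1487, 1467 and 1187 in WT and 739.7, 843.5 and 1250 in Fmo5-/- mice, with a log2 fold change of -0.55 ± 0.20 (edgeR adjusted p = 0.163; DESeq2 adjusted p = 0.0422). mt-Tn had 270.1, 255.5 and 217.8 in WT and 141.6, 152.4 and 251.3 in Fmo5-/- mice, with a log2 fold change of -0.45 ± 0.22 (edgeR adjusted p = 0.285). For mt-Tc and mt-Tn the third Fmo5-/- animal lay among the WT animals and the other 2 lay below all of them. Without that animal, edgeR called mt-Tp, mt-Tc and mt-Tn, with log2 fold changes of -0.62, -0.81 and -0.76 and adjusted p of 0.0189, 0.0121 and 0.0434, in a fit that called 763 of 17130 genes (4.45%).

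The other tRNA genes had few counts. mt-Tl1 had between 20 and 39 counts per library, mt-Tq between 16 and 36, mt-Te between 10 and 28, and mt-Tm between 4 and 19. Their adjusted p lay at 0.699 or above, and their log2 fold changes of 0.23, -0.21, 0.21 and -0.0004 had 95% intervals that included 0. The remaining 15 tRNA genes were not tested and had at most 15 counts in any library. No count was listed in any library for 7 tRNA genes, mt-Tw, mt-Ty, mt-Ts1, mt-Td, mt-Tk, mt-Tg and mt-Th. Of these, mt-Ts1, mt-Td, mt-Tk and mt-Tg lie within the stretch spanned by the copies on chromosome 1.

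Counting each strand by itself gave other values for the tRNA genes. The deposited files also list, per gene, the reads on each strand alone, and a read is then set only against genes of its strand. Over all genes, 49.9% to 50.1% of single-strand counts fell in the first of these columns, so over all genes the reads did not follow the strand of the gene. The sum of both single-strand columns over the 6 libraries was 27762 for mt-Te, which lies between mt-Nd6 and mt-Cytb, and the either-strand count summed to 115. For mt-Tq these sums were 13153 and 140, for mt-Ti 6663 and 3, and for mt-Tm 5727 and 68. In all, 11 tRNA genes averaged over 100 counts by strand and 3 did so on either strand. For mt-Tp (23747 and 22899), mt-Tc (6867 and 6866) and mt-Tn (1279 and 1271) the sums changed little, but their reads were split unevenly, with 25.5%, 83.8% and 2.5% in the first column, where mt-Co1 had 51.4%. The log2 fold change of mt-Tp was -0.35 on the first strand and -0.51 on the second, that of mt-Tc was -0.58 and -0.28, and that of mt-Tn was -0.44 on the second, none of them called by edgeR (adjusted p between 0.0583 and 0.481). On the first strand, mt-Tn did not pass the filter. With the first single-strand column, the tRNA share of counts was 0.027% in WT and 0.028% in Fmo5-/- mice, with exact p = 0.6. With the second it was 0.0319% and 0.03%, with exact p = 0.4.

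**Figure D4:**
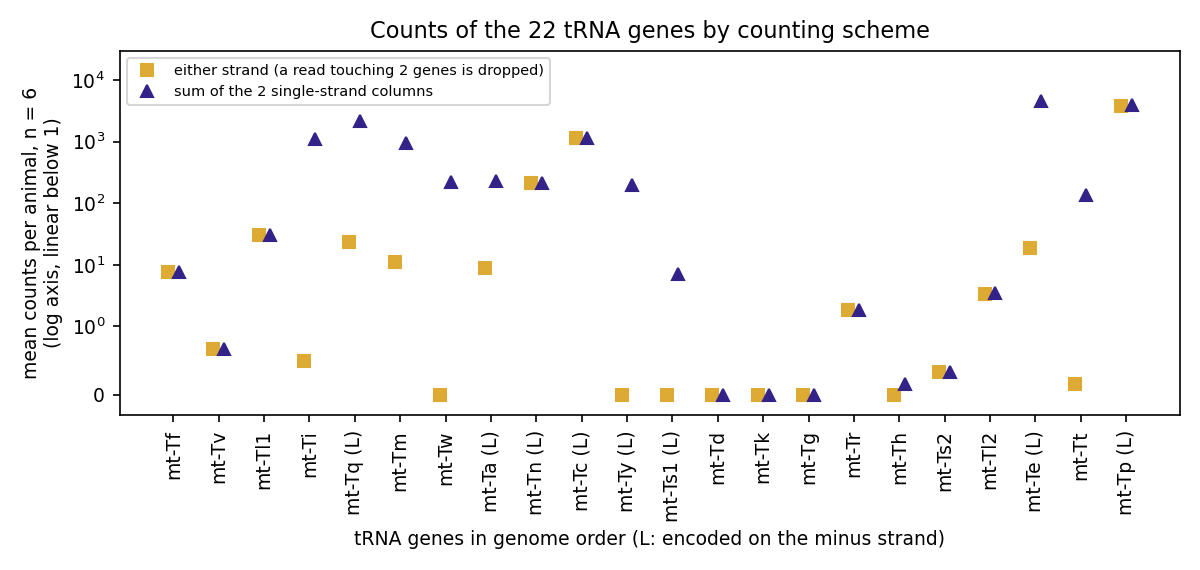
Mean counts per animal (n = 6, log axis, linear below 1) of the 22 tRNA genes in genome order, counted on either strand (squares) and as the sum of both single-strand columns (triangles); L marks genes on the minus strand. The schemes coincide for mt-Tp, mt-Tc and mt-Tn and part for mt-Te, mt-Tq, mt-Ti and mt-Tm.

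The nuclear genes that make and process mitochondrial RNA were read from lists of their known members. Of 19 genes for transcription and replication of mitochondrial DNA, none was called by edgeR or DESeq2 and 1 had an unadjusted p under 0.05 in edgeR; 11 were lower and 8 higher, around a median log2 fold change of -0.06, which turned to 0.05 with library size alone as the scaling. Over all genes tested, edgeR called 1.37% and DESeq2 8.96%, 49.2% were lower and 21.8% had such a p. Polrmt, the mitochondrial RNA polymerase, had normalised counts of 1245, 1254 and 1204 in WT and of 1388, 1224 and 1324 in Fmo5-/- mice, with a log2 fold change of 0.09 ± 0.08 (edgeR adjusted p = 0.562). Tfam, which packages mitochondrial DNA and starts its transcription, had 2517, 2312 and 2186 in WT and 2048, 2013 and 1981 in Fmo5-/- mice. These did not overlap, with a log2 fold change of -0.22 ± 0.08 and an adjusted p of 0.161. Mterf3, a regulator of transcription and ribosome assembly, had a log2 fold change of -0.20 ± 0.10 (adjusted p = 0.286), and Top1mt, the mitochondrial topoisomerase, one of 0.17 ± 0.09 (adjusted p = 0.327).

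Of 33 genes tested for processing, modification and decay of mitochondrial RNA, none was called by edgeR, 7 had an unadjusted p under 0.05 and 2 were called by DESeq2; 25 were lower and 8 higher, around a median log2 fold change of -0.13. Over all genes tested, edgeR called 1.37%, 21.8% had such a p, and DESeq2 called 8.96% (4.21% as lower, as both of these were). A negative fold change was found for 49.2% of all genes (64.0% at a mean of 500 or more). With library size alone the median of the list was -0.02. Lrpprc, which stabilises mitochondrial mRNAs, had 5681, 6493 and 5622 in WT and 5499, 4803 and 5067 in Fmo5-/- mice. Every Fmo5-/- animal was below every WT animal, with a log2 fold change of -0.21 ± 0.09 and an adjusted p of 0.224. Rexo2, which degrades short RNA fragments, had 5215, 5582 and 5003 in WT and 4142, 4400 and 4146 in Fmo5-/- mice. Its log2 fold change of -0.32 ± 0.08 had an edgeR adjusted p of 0.0756 and a DESeq2 adjusted p of 0.0128. Pnpt1, the mitochondrial polynucleotide phosphorylase, had 1367, 1359 and 1387 in WT and 1096, 1164 and 1119 in Fmo5-/- mice, with a log2 fold change of -0.28 ± 0.07 (edgeR adjusted p = 0.0763; DESeq2 adjusted p = 0.0366). Ptcd2, a pentatricopeptide repeat protein, had a log2 fold change of -0.27 ± 0.07 (edgeR adjusted p = 0.0845). For Rexo2, Pnpt1 and Ptcd2, named for the smallest p in the list, no animal of either genotype fell in the range of the other. The same held for 14 of the 33 genes, beside 27.4% of all genes tested and 31.3% of those with a mean of 500 or more.

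Regulators of mitochondrial biogenesis gave no call by edgeR or DESeq2 among 8, and 1 had an unadjusted p under 0.05 in edgeR, with 3 lower and 5 higher and a median of 0.04 (0.15 with library size alone). Over all genes tested, 1.37% were called by edgeR and 8.96% by DESeq2, 21.8% had such a p and 49.2% were lower. Ppargc1a, the coactivator best known for driving biogenesis, had 363, 248 and 453 in WT and 329, 392 and 322 in Fmo5-/- mice, with a log2 fold change of -0.03 ± 0.21 (adjusted p = 0.949). Gabpa, a subunit of the nuclear respiratory factor GABP, had a log2 fold change of -0.26 ± 0.08 (adjusted p = 0.121) without overlap of the genotypes, and those of Esrra and Yy1 were 0.12 ± 0.07 and -0.09 ± 0.10, with adjusted p of 0.389 and 0.646.

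The nuclear subunits that join the mitochondrial ones in complexes I, III and IV and in ATP synthase had mostly negative fold changes. None of them was called by edgeR, beside 1.37% of all genes tested. An unadjusted p under 0.05 was found for 18 of 74, all lower, beside 10.2% of all genes that passed as lower. Among all genes with a mean of 500 or more, 25.2% had such a p in either direction. DESeq2 called 3 of 74, all lower, beside 4.21%. Of the 74, 73 were lower in Fmo5-/- mice and 1, Atp5l, higher, around a median of -0.18 on the log2 scale, against -0.06 over all genes with a mean of 500 or more, of which 64.0% were lower. By complex, the median was -0.178 for 37 subunits of complex I, -0.175 for 9 of complex III, -0.205 for 11 of complex IV and -0.173 for 17 of ATP synthase. Complex II, which has no mitochondrial subunit, had a median of -0.201 over its 4 genes. With library size alone as the scaling these medians lay between -0.06 and -0.09, against 0.05 over all genes with a mean of 500 or more, a shift that all genes share. The mitochondrial members of the same complexes had log2 fold changes of -0.06 to -0.27 in complex I apart from mt-Nd3, -0.16 in complex III and -0.13 in complex IV. The genes of a cell are not independent of each other, and the counts of lower genes carry no test.

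The nuclear subunits with the smallest p were the following. Ndufs1, an iron-sulphur subunit of complex I, had 6274, 5740 and 5425 in WT and 4568, 4082 and 4730 in Fmo5-/- mice, with a log2 fold change of -0.38 ± 0.09 (edgeR adjusted p = 0.071; DESeq2 adjusted p = 0.00974). Uqcrc2, a core subunit of complex III, had 12222, 11633 and 11248 in WT and 9264, 8452 and 9551 in Fmo5-/- mice, with a log2 fold change of -0.36 ± 0.09 (edgeR adjusted p = 0.0704; DESeq2 adjusted p = 0.00489). In both genes the groups were well apart. Ndufv2 and Ndufs4 of complex I had log2 fold changes of -0.31 ± 0.10 and -0.25 ± 0.09 (adjusted p = 0.114 and 0.156), and Uqcrfs1 and Uqcr10 of complex III of -0.27 ± 0.08 and -0.27 ± 0.11 (edgeR adjusted p = 0.11 and 0.191; DESeq2 adjusted p = 0.0396 for Uqcrfs1). In complex IV, Ndufa4, Cox5a and Cox8a had -0.29 ± 0.10, -0.26 ± 0.08 and -0.21 ± 0.10 (adjusted p = 0.14, 0.102 and 0.265). In ATP synthase, Atp5c1, Atp5f1 and Atp5mpl had -0.26 ± 0.09, -0.26 ± 0.09 and -0.24 ± 0.10 (adjusted p = 0.133, 0.148 and 0.193). In complex II, Sdhd, Sdha and Sdhc had -0.24 ± 0.08, -0.26 ± 0.11 and -0.16 ± 0.09 (adjusted p = 0.146, 0.206 and 0.311).

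**Figure D5:**
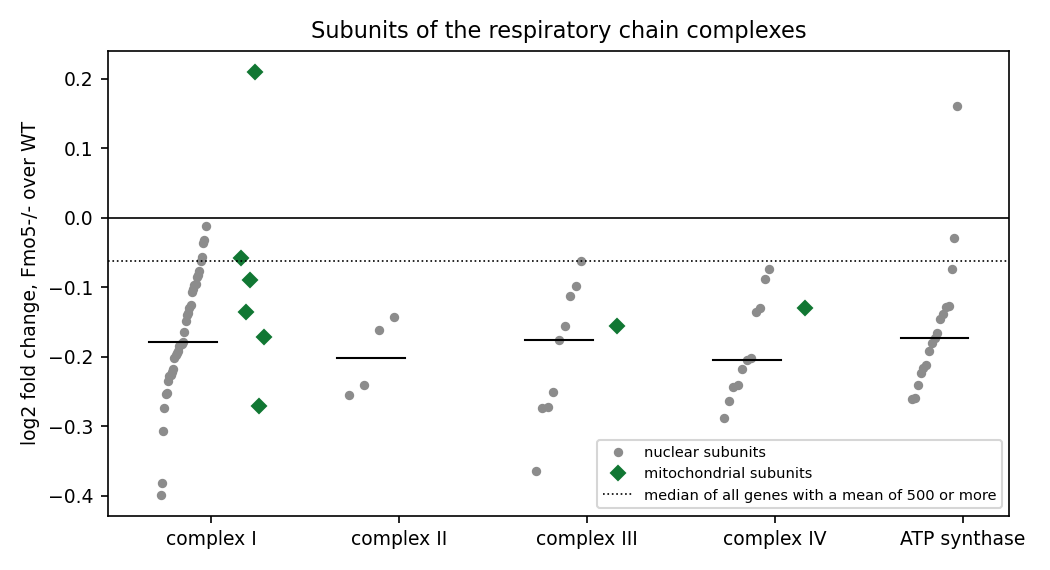
Log2 fold change (y axis, Fmo5-/- over WT) of the nuclear subunits (grey circles, with a line at their median) and of the tested mitochondrial subunits (green diamonds) of each respiratory complex; the dotted line is the median of all genes with a mean of 500 or more. Except for mt-Nd3 in complex I and the nuclear Atp5l of ATP synthase, all points lie below 0, and no mitochondrial gene of ATP synthase could be tested.

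Markers of other cell types were summed in each library, and edgeR called 1 marker gene over all lists, beside 1.37% of all genes tested. The summed level of 7 Kupffer cell markers was 175 to 210 CPM in WT and 300.0 to 569 in Fmo5-/- mice, and edgeR called 1 of the 7, Clec4f, higher. The sum of 5 T and NK cell markers was 1.45 to 2.84 in WT and 3.05 to 12.5 in Fmo5-/- mice, that of 5 neutrophil markers 0.821 to 2.18 and 2.51 to 5.6, that of 4 B cell markers 3.99 to 6.15 and 6.17 to 8.05, and that of 4 adipose markers 8.93 to 20.8 and 0.913 to 3.12. Under 1 CPM in every library were 3 of the 4 adipose, 3 of the 5 neutrophil and 1 of the 5 T and NK cell markers. All 9 hepatocyte markers were present, with a sum of 108000 to 136000 in WT and 123000 to 140000 in Fmo5-/- mice. Sums of endothelial (145 to 172 and 165 to 185), stellate (225 to 248 and 228 to 352), cholangiocyte (11.7 to 19.8 and 12.4 to 14.5), erythroid (193 to 289 and 220 to 434), muscle (at most 1.48 in any library) and pancreas markers (0.156 to 0.461 and 0.306 to 0.497) overlapped. Reads that fell in more than 1 gene made up 3.52% to 3.62% of the reads listed in WT and 3.72% to 3.98% in Fmo5-/- mice, and reads that mapped to several places 11.8% to 13.1% and 10.4% to 11.5%. Unmapped reads made up 9.72% to 10.1% in WT and 9.1% to 9.2% in Fmo5-/- mice, and reads outside genes 6.86% to 7.02% and 6.96% to 8.63%. The part of these differences in the values of the mitochondrial genes was not tested.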

How the data were processed

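RNA was extracted from frozen liver, and mRNA libraries were sequenced as single reads of 75 bases. The authors clipped adapters, mapped reads to mm10 with STAR 2.6.0c and deposited raw counts per gene, on either strand and on each strand alone. Per the file headers and methods, the deposited table of their DESeq2 1.22.2 comparison holds signal columns (counts divided by a size factor per library), log2 fold changes with errors, a score (the test statistic) and p-values; the symbols were taken from it, and the authors' comparison columns were not used. The annotation release is not given in the sources used here. GENCODE vM21 on the same build holds all 37 identifiers and gave positions, overlaps and sequences.

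Either-strand counts were compared in edgeR 4.0.16 (R 4.3.3; filterByExpr with a minimum count of 10, TMM, robust quasi-likelihood test, ~ genotype, Benjamini-Hochberg adjustment over 16734 genes). An adjusted p under 0.05 was a call. Errors of log2 fold changes are SE, others SD. Shares of gene counts were compared by exact two-sided permutation over animals (SciPy 1.17.1). Nuclear copies were sought with blastn 2.17.0 (identity of 95% or more over at least 75 bases) and by word-for-word comparison of all 75-base positions, in annotated nuclear transcripts only. The outcome of a check of the test on simulated counts is not given here, and no value above rests on it. DESeq2 1.42.0, other scalings, filters, single strands and leaving out each library were alternatives. The genes named are all coding and rRNA genes, tested tRNA genes, the 3 tRNA genes with most counts per length, the 3 genes of smallest p per list, Polrmt, Tfam, Lrpprc, Ppargc1a, Fmo5 and nuclear copies averaging 500 counts or more; others were named after their values were seen. The members and lists were chosen with earlier results of these data known. The labels name separate animals by number only, and p-values measure the spread between these libraries.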

Additional observations from a re-analysis of the deposited data

How the results depend on the processing

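The difference of -0.183 percentage points in the share of gene counts on mitochondrial genes kept its sign in the planned denominators, strands and sets of genes that were run. It was -0.0603 (exact p = 0.9) of all reads listed and -0.234 (exact p = 0.5) of counts without the 20 most abundant nuclear genes. With each animal left out in turn the difference ranged from -0.417 to -0.0105. The alternative that needed the nuclear genome was not run; leaving out genes with at least 10% of their positions in nuclear transcripts, chosen after seeing the data, gave -0.152 (exact p = 0.3). With each animal left out, the difference of the coding share ranged from -0.381 to 0.0338 percentage points, turning without the second Fmo5-/- animal, and that of the rRNA share from -0.0415 to 0.00527, turning without the first. The difference of the tRNA share turned to 0.000988 on the first strand and was -0.00191 on the second.

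The count of members called, 0 by edgeR, was 3 with DESeq2 and 3 with no filter on low counts, and ranged from 0 to 3 with each animal left out, with 3 without the third Fmo5-/- animal. Over all genes, 229 calls became 1395 with DESeq2, 446 with library size alone, 1989 with no filter and 53 with the mean of 500 set before the fit, and ranged from 31 to 763 with each animal left out. Among genes with a mean of 500 or more, 126 calls became 744, 223, 981 and 53 in the same settings, and ranged from 14 to 259. The cause was not tested.

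Of the 17 members tested, 11 never changed sign. With library size alone, mt-Rnr2 turned to 0.0237, mt-Tm to 0.11, mt-Nd4 to 0.0214 and mt-Nd6 to 0.0521. mt-Nd6 was 0.0062 with the mean of 500 set before the fit. mt-Tm was 0.0051 without the 20 most abundant genes in the scaling and 0.11 on the second strand, and mt-Tq was 0.0114 on the first. With each animal left out, the values of these and other members that turned ranged for mt-Tq from -0.52 to 0.23, for mt-Tm from -0.36 to 0.71, for mt-Nd4 from -0.15 to 0.0073 and for mt-Te from -0.0231 to 0.45. Members that kept their sign with each animal left out also moved. The range was 0.0383 to 0.535 for mt-Tl1, -0.128 to -0.0388 for mt-Rnr2 and -0.259 to -0.0854 for mt-Cytb. It was -0.204 to -0.0346 for mt-Co1, -0.202 to -0.0181 for mt-Nd5 and -0.0951 to -0.0321 for mt-Nd6. The adjusted p of mt-Tp lay between 4.8e-05 and 0.234 over its alternatives, that of mt-Tc between 2.91e-05 and 0.481 and that of mt-Rnr1 between 0.0386 and 0.394. No paired analysis was possible because the labels give no replicate numbers that the genotypes share.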
